A study of Mus musculus with 6 samples.

Results

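Interferon-induced genes are the genes that a cell switches on when an interferon, a secreted antiviral and immune signal, binds its receptor. The 32 genes described here were taken by symbol from a fixed list of well known members of this group, and each of the 32 had an entry among the 26130 genes of the count table. They were measured by RNA-seq in mouse skeletal stem cells (mSSCs), progenitors able to give bone, cartilage and stroma, which were sorted from the Achilles tendon-to-bone interface of C57BL/6 mice. The design compares cells 7 days after a partial injury of that interface (injured, 3 libraries) with sham control cells (2 libraries) and uninjured cells (1 library). All libraries share the strain, the tissue, the sort and the day, and RNA was amplified from ultra low input with a Smarter kit. The free-text description of the uninjured library names it as a sham, so the injured libraries were compared both with the sham control libraries alone and with all 3 libraries without injury. The labels do not say whether libraries came from separate mice or from pooled mice, so p-values measure only the spread between these libraries, which may in part be technical.

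Type I interferons bind the Ifnar1 and Ifnar2 receptor pair, and the Jak1 and Tyk2 kinases then activate a complex that holds Stat2 and Irf9, which binds a DNA element called the interferon-stimulated response element (ISRE). Interferon gamma acts through Ifngr1 and Ifngr2 and on a different element, the gamma-activated site (GAS). The products of the induced genes sense foreign nucleic acid, block viral RNA and viral entry, or feed back on the pathway, and low steady expression of many of them is usual in unstimulated stromal cells.

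Total counts per library ran from 37506188 to 51089267, so a floor of 3 counts stood at 0.0495 to 0.0828 CPM (counts per 1000000 counts of a library, here scaled by edgeR's TMM factors). Both genes of the mSSC sort that should be present, Itgav and Cd200, were counted in all 6 libraries, with a sum of 64.7 to 230 CPM. The 5 sort genes that should be absent (Ptprc, Tek, Thy1, Enpep and Eng) summed to 297 CPM in sham library 1 and 0.663 CPM in sham library 2, to 97.6 CPM in the uninjured library, and to 121, 54.5 and 18.2 CPM in the injured libraries. Transcripts of blood cells stood apart in sham library 1 and injured library 1: the summed neutrophil markers were at 10066 and 6422 CPM there and at 4.88 to 814 CPM in the other 4 libraries. Where leaving out sham library 1 turned the sign of a fold change against sham control, this is said beside the gene or with the list.

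Most of the 32 genes were expressed at a low level, and few differed between injured and control cells by more than the libraries of 1 group differed among themselves. In the injured cells, Irf1 was lower than in every library without injury. Xaf1 and Gbp2 were also lower in each injured library than in each control, with wide errors. Ifit1 was nearly absent from both sham libraries and present in the injured ones, but it was highest in the uninjured library. No gene of the group, and no gene of the whole table, passed edgeR's test at an adjusted p under 0.05 in either comparison.

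Of the 32 genes, 28 and 22 had counts in sham libraries 1 and 2, 26 in the uninjured library, and 28, 27 and 29 in the injured libraries. The mean level, as log2(CPM + 1) over all 32, was 3.42 and 2.20 in sham libraries 1 and 2, 2.93 in the uninjured library, and 2.88, 2.76 and 2.02 in the injured libraries. The group means were 2.81 ± 0.87 (SD, n = 2) for sham control, 2.55 ± 0.47 (SD, n = 3) for injured and 2.85 ± 0.62 (SD, n = 3) for all libraries without injury. The spread among sham libraries was thus larger than the distance between groups, and injured library 3 was the lowest of the 6. In whole sorted samples, fewer cells of a type and less RNA per cell cannot be told apart.

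**Figure D1:**
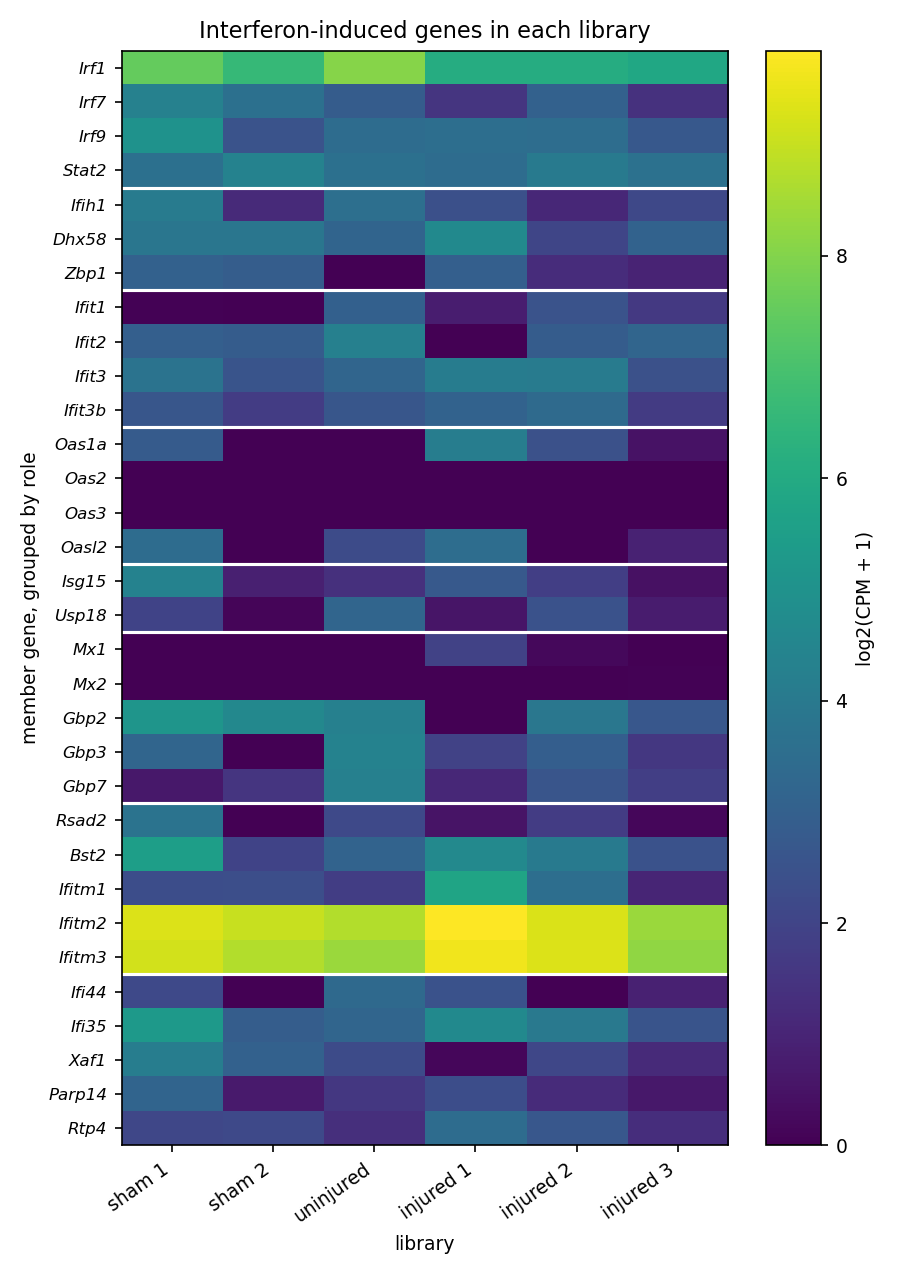
Level of each of the 32 genes (vertical axis, grouped by role, with white lines between roles) in each of the 6 libraries (horizontal axis), coloured by log2(CPM + 1). Ifitm2 and Ifitm3 are the brightest genes in every library, and Oas2, Oas3 and Mx2 are at or near 0 throughout.

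Per length of merged exon, the order of levels was headed by 2 genes that encode small membrane proteins. Ifitm2 had a mean of 874 ± 315 CPM per kilobase and Ifitm3 of 752 ± 287 CPM per kilobase (SD, n = 6 libraries). The SD is the spread over libraries and not that of their difference. Per kilobase, Ifitm2 was above Ifitm3 in each library. Irf1 followed at 36.7 ± 25.3 CPM per kilobase and Bst2 at 20.9 ± 20.2 CPM per kilobase. Bst2 was above Irf1 in sham library 1 and injured library 1 alone. Ifi35 (11.8 CPM per kilobase), Ifitm1 (11.5) and Isg15 (6.75) came next, and Parp14 (0.371) and Mx1 (0.147) were the lowest of the genes that entered a test. In plain CPM, Ifitm2 and Ifitm3 together made up 61.5% to 84.6% of the summed level of all 32 genes. Without that pair, the other 30 genes summed to 519 and 217 CPM in sham libraries 1 and 2, 462 CPM in the uninjured library, and 312, 232 and 132 CPM in the injured libraries. Irf1 was the largest part of each of these sums. It made up 182 and 94.7 CPM in sham libraries 1 and 2, 267 CPM in the uninjured library, and 66.9, 67.0 and 57.0 CPM in the injured libraries.

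The transcription factors of the group (Irf1, Irf7, Irf9 and Stat2) carry the signal to DNA. All 4 had negative fold changes against sham control, with a median of -1.07 on the log2 scale, and all 4 were negative against all libraries without injury, with a median of -1.15. The shared sign against sham control did not hold without either sham library: Irf9 was at 0.92 without sham library 1, and Stat2 at 0.13 without sham library 2. Irf1 is an activator induced within hours by interferon gamma and by other stress signals. It stood at 182 and 94.7 CPM in sham libraries 1 and 2, at 267 CPM in the uninjured library, and at 66.9, 67.0 and 57.0 CPM in the injured libraries. The injured libraries lay close together (63.6 ± 5.73 CPM, SD, n = 3) and all below the 3 others, which spread widely (181 ± 86.2 CPM, SD, n = 3).

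Against sham control, Irf1 had a log2 fold change of -1.12 ± 0.40 (SE, unadjusted p = 0.0275 and adjusted p = 0.865 by edgeR's quasi-likelihood test). Against all libraries without injury it was -1.52 ± 0.42 (SE, unadjusted p = 0.00778, adjusted p = 0.452, edgeR), and DESeq2 gave an adjusted p of 0.0333. The first value depended on sham library 1: without it, edgeR gave -0.57 with an unadjusted p of 0.213. Against all libraries without injury, the unadjusted p of Irf1 stayed under 0.05 in 12 of 12 alternative settings, which included leaving out each library in turn, with fold changes from -1.82 to -1.14 and edgeR, DESeq2 or limma adjusted p-values from 0.0333 to 1. With sham library 1 and injured library 1 both left out, it was -1.55 there (unadjusted p = 0.0368, edgeR) and -0.61 against the remaining sham library.

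The Irf1 gene lies on chromosome 11 from 53770014 to 53778374 (GRCm38.p6). A GAS match, TTCNNNGAA, stands 90 to 82 bases before its RefSeq start site, in a window at chr11:53769891-53769965 on the plus strand. It is shown because Irf1 is a known GAS target and had the smallest p of the group against all libraries without injury; capitals mark the match.
Irf1: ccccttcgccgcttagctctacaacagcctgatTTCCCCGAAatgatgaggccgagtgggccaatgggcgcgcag

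Irf7, the factor that amplifies type I interferon production, was at 19.1 and 11.4 CPM in sham libraries 1 and 2, 6.33 CPM in the uninjured library, and 1.90, 7.38 and 1.65 CPM in the injured libraries. It was singled out after its values were seen: the injured libraries lay below both sham libraries, while the uninjured library fell between injured libraries. Its log2 fold change against sham control was -2.06 ± 1.09 (SE, adjusted p = 0.865, edgeR). Irf9, the DNA-binding partner of Stat2, ranged from 4.69 to 31.2 CPM over the 3 libraries without injury and from 5.59 to 10.7 CPM over the injured ones. Stat2 was the steadiest factor, at 14.1 ± 4.94 CPM without injury and 12.3 ± 2.53 CPM after it (SD, n = 3 each). For both, the groups overlapped.

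**Figure D2:**
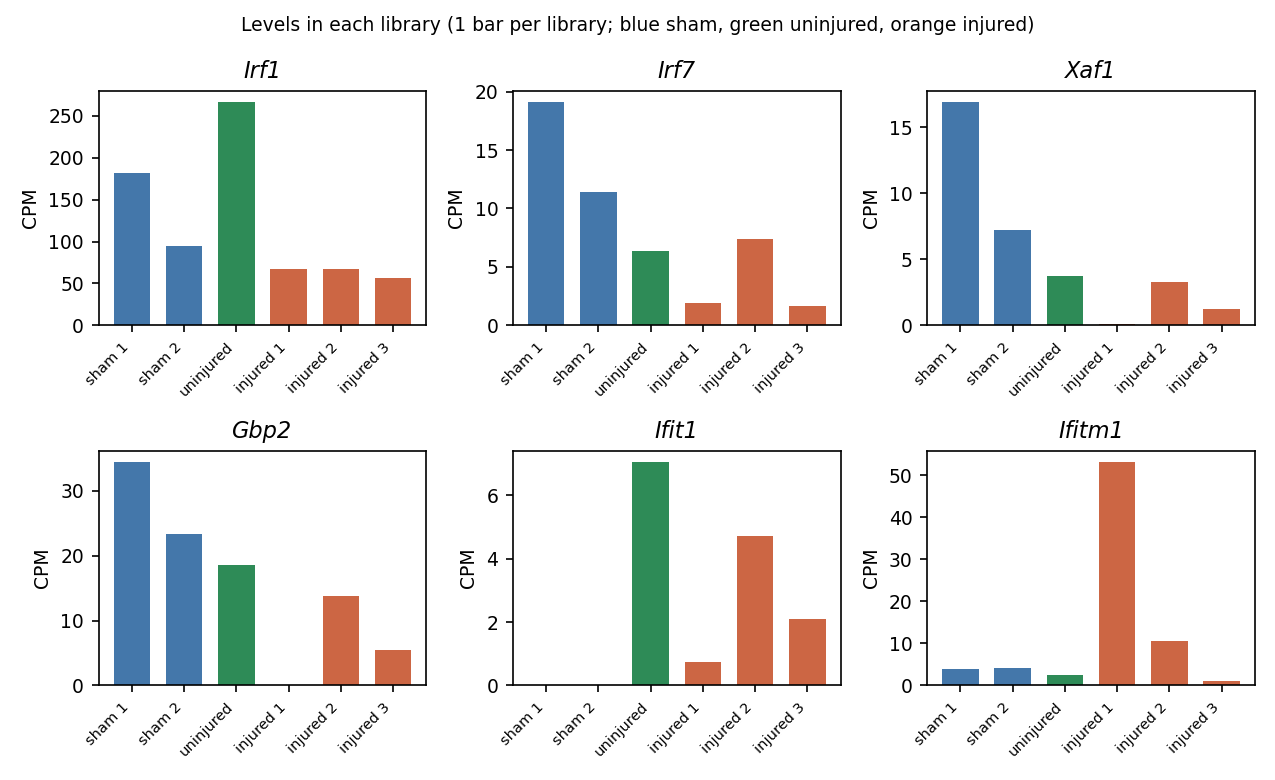
CPM (vertical axis, linear from 0) of Irf1, Irf7, Xaf1, Gbp2, Ifit1 and Ifitm1 in each library (horizontal axis), with 1 bar per library: blue for sham control, green for uninjured and orange for injured. Irf1 is at 57.0 to 67.0 CPM in the injured libraries and at 94.7 CPM or more in the others, while the 53.2 CPM of Ifitm1 belongs to injured library 1 alone.

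The sensors of foreign nucleic acid had a median log2 fold change of -1.16 against sham control and -0.58 against all libraries without injury, and none of the 3 separated the groups. Ifih1 encodes MDA5, which detects long double-stranded RNA. It was at 16.2 and 1.24 CPM in sham libraries 1 and 2, 11.1 CPM in the uninjured library, and 4.25, 1.16 and 3.38 CPM in the injured libraries, so sham library 2 lay among the injured libraries. Its log2 fold change against sham control was -1.57 and turned to 1.24 without sham library 1. Dhx58 encodes LGP2, a partner of that sensor, and read 13.6 and 13.7 CPM in sham libraries 1 and 2, 8.06 CPM in the uninjured library, and 24.6, 3.14 and 7.58 CPM in the injured libraries. The injured libraries of Dhx58 reach both above and below every control. Zbp1, a sensor of Z-form nucleic acid, was at 7.33 and 6.54 CPM in sham libraries 1 and 2 and listed at 0 in the uninjured library. After injury it ranged from 0.964 to 6.97 CPM.

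The IFIT genes encode cytosolic proteins that bind viral RNA and block its translation. Their median log2 fold change was 0.65 against sham control and 0.31 against all libraries without injury, and 3 of the 4 were positive in each comparison. Ifit2, Ifit3, Ifit3b and Ifit1 lie in this order on chromosome 19 between 34550550 and 34650009. Ifit1 had 1 count in sham library 1 and none in sham library 2, which is 0.0270 and 0 CPM. It stood at 7.06 CPM in the uninjured library and at 0.724, 4.72 and 2.10 CPM in the injured libraries. The injured and sham libraries did not overlap, yet the uninjured library was the highest of the 6.

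Against sham control, the ratio of summed Ifit1 counts, scaled for depth, was 201 with a 95% counting interval from 35.9 to 7962, which covers counting error only. The edgeR test gave an unadjusted p of 0.0270 and an adjusted p of 0.865, and DESeq2 gave an adjusted p of 0.0230. Without sham library 2, injured library 2 or injured library 3, the unadjusted p was 0.0645, 0.0866 and 0.0623 by edgeR. Against all libraries without injury, the log2 fold change was 0.09 ± 2.27 (SE, adjusted p = 0.999, edgeR).

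Ifit3 was at 12.3 and 4.94 CPM in sham libraries 1 and 2, 8.35 CPM in the uninjured library, and 16.6, 16.1 and 4.39 CPM in the injured libraries. Both high values of Ifit3 were injured libraries, but so was the lowest. Its near copy Ifit3b had 2.29 to 9.71 CPM after injury and 2.37 to 5.26 CPM without it. The coding sequences of Ifit3 and Ifit3b are identical at 1201 of 1212 bases (99.1%), so the split of reads between them is uncertain, and the count ratio of Ifit3 to Ifit3b was 1.59 to 2.37 in the 6 libraries. Ifit2, at 64.7% coding identity to Ifit3, followed another order: it was listed at 0 in injured library 1, where Ifit3 was highest, and reached 18.7 CPM in the uninjured library.

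The ISRE core, searched as GAAANNGAAA on both strands, is found 2 times before the start of Ifit3, of Ifit3b and of Ifit1. On the strand shown, each match reads as its reverse complement. These windows are printed to show how alike the near copies are and how Ifit1 differs from them; capitals mark the matches. They lie on the plus strand at chr19:34583357-34583432, chr19:34607753-34607828 and chr19:34640762-34640836.
Ifit3: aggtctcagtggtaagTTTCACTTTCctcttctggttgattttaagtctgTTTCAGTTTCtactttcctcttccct
Ifit3b: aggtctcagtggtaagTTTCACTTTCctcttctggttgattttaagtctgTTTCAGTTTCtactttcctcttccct
Ifit1: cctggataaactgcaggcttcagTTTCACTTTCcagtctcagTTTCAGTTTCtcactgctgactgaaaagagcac

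The Ifit3 and Ifit3b windows hold the same 76 bases. Of their 300-base promoters, 260 bases align and 258 of these are identical. The first match begins 156 bases before the start in Ifit3 and 188 bases before it in Ifit3b. Ifit1 keeps both matches with fewer bases between them.

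**Figure D3:**
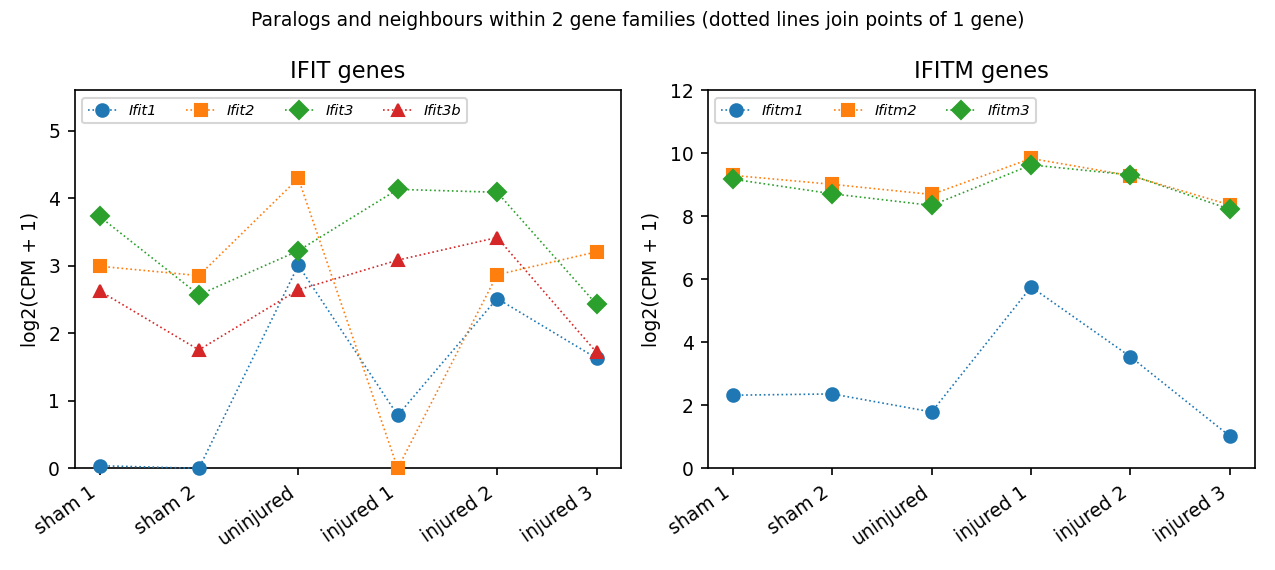
Level as log2(CPM + 1) (vertical axes, on different scales) of the IFIT genes (left) and the IFITM genes (right) in each library (horizontal axis), 1 marker per gene. Ifitm2 and Ifitm3 run side by side, Ifit3 and Ifit3b keep the same distance within a factor given by their count ratios of 1.59 to 2.37, and Ifit1, Ifit2 and Ifitm1 take other courses.

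Of the OAS family, whose enzymes make the 2-5A signal that activates RNase L, only Oas1a and Oasl2 had enough counts for a test. Oas1a was at 6.00 CPM in sham library 1, at 0 in sham library 2 and the uninjured library, and at 17.2, 4.36 and 0.407 CPM in the injured libraries. The highest values of Oas1a were in injured library 1 and sham library 1, which also had the most transcripts of blood cells. The uninjured library, without an Oas1a count, had neutrophil and macrophage marker sums of 814 and 193 CPM. These sums were 573 and 1318 CPM in injured library 2. The part of blood cells in the Oas1a values was not tested. Oasl2, an OAS-like relative, ranged from 0 to 10.3 CPM without injury and from 0 to 10.5 CPM after it. Oas2 had no count in any library, which allows up to 0.0113 CPM over the 6 together, and Oas3 had 1 count, in injured library 1.

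Isg15 is a ubiquitin-like protein that is joined to other proteins, and Usp18 removes it and also restrains the type I receptor. Isg15 stood at 19.6 and 0.801 CPM in sham libraries 1 and 2, 1.61 CPM in the uninjured library, and 5.70, 2.51 and 0.364 CPM in the injured libraries. Sham library 1 was the highest, and the other control libraries lay among the injured ones. The log2 fold change against sham control was -1.84 ± 1.70 (SE, adjusted p = 0.896, edgeR), and without sham library 1 it turned to 1.83. Usp18 ranged from 0.110 to 8.25 CPM without injury and from 0.475 to 4.62 CPM after it. The Isg15 window at chr4:156200848-156200923, minus strand, is shown as the densest ISRE run of the sequences printed: 3 overlapping matches stand 78 to 57 bases before the start.
Isg15: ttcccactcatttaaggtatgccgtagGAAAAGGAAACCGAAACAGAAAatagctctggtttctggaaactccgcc

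The GTPases of the group are the Mx proteins, which trap viral nucleocapsids, and the guanylate-binding proteins, which coat vacuoles that hold pathogens. Gbp2 was at 34.5 and 23.3 CPM in sham libraries 1 and 2, 18.5 CPM in the uninjured library, and 0, 13.9 and 5.42 CPM in the injured libraries. Every injured library was below every control, and the spread among injured libraries was wide (6.42 ± 6.98 CPM, SD, n = 3). Its log2 fold change was -2.17 ± 1.79 against sham control (SE, adjusted p = 0.869, edgeR) and -1.99 ± 1.61 against all libraries without injury (SE, adjusted p = 0.896, edgeR). Injured library 1 had no Gbp2 count at all, and it was rich in macrophage and neutrophil transcripts. The part of these cells in the Gbp2 values was not tested. Without injured library 1, Gbp2 stood at -1.58 against sham control (unadjusted p = 0.0728, edgeR).

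Gbp2 shares a stretch of chromosome 3, from 142530336 to 142638008, with Gbp7 and Gbp3, and its window at chr3:142620571-142620646, plus strand, is shown for its ISRE match 59 to 50 bases before the start.
Gbp2: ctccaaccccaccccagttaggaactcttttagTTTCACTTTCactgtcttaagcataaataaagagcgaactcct

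The neighbours of Gbp2 had another order of libraries. Gbp3 (8.30 and 0 CPM in the sham libraries) and Gbp7 (0.541 and 1.85 CPM) both peaked in the uninjured library, at 19.4 and 18.7 CPM. After injury, Gbp3 ranged from 2.06 to 6.70 CPM and Gbp7 from 1.15 to 5.00 CPM. Mx1, which in C57BL/6 and most other inbred strains is a defective allele, was listed at 0 in all 3 libraries without injury and in injured library 3. It had 2.83 and 0.165 CPM in injured libraries 1 and 2, at least 24.4-fold higher on average than sham control at a floor of 3 counts over the group, with an unadjusted p of 0.117 by edgeR. Mx2 had 2 counts, in injured library 3.

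The factors that act at membranes or on nucleotides and lipids gave the highest levels of the group. Ifitm2, which keeps viruses from fusing with the endosome, was at 631 and 518 CPM in sham libraries 1 and 2, 414 CPM in the uninjured library, and 916, 627 and 329 CPM in the injured libraries. Its log2 fold change against sham control was 0.12 ± 0.52 (SE, adjusted p = 0.9998, edgeR), and the injured libraries reached both above and below all controls. Ifitm3, the best studied of these entry blockers, followed Ifitm2 with a count ratio of Ifitm2 to Ifitm3 of 0.984 to 1.27 and had a log2 fold change of 0.21 ± 0.52. The coding sequences of the pair match at 80.8% of aligned bases.

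Ifitm1, on the same stretch of chromosome 7 (140967429 to 140969827), took another course than its neighbours. It was at 4.00 and 4.14 CPM in sham libraries 1 and 2, 2.46 CPM in the uninjured library, and 53.2, 10.7 and 1.03 CPM in the injured libraries. Injured libraries 1 and 2 lay above all controls and injured library 3 below them. The log2 fold change was 2.41 ± 1.52 against sham control (SE, unadjusted p = 0.158, edgeR) and 2.61 ± 1.26 against all libraries without injury (SE, unadjusted p = 0.0758, edgeR). Without injured library 1 the values were 0.52 and 0.73. Over the injured libraries, the summed macrophage markers stood in the same order, at 5132, 1318 and 39.1 CPM. Over the sham libraries they did not move with Ifitm1: they were at 3087 and 48.0 CPM, with Ifitm1 at 4.00 and 4.14 CPM. Their part in the Ifitm1 values was not tested.

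Bst2, the tetherin that holds budding virus at the cell surface, ranged from 2.98 to 45.2 CPM without injury and from 4.56 to 23.6 CPM after it. Rsad2 (viperin), which makes a chain-terminating nucleotide, had 12.3 CPM in sham library 1, none in sham library 2, 3.55 CPM in the uninjured library and 0.129 to 2.35 CPM after injury. For both genes the highest library was sham library 1, and the groups overlapped. The log2 fold change of Bst2 against sham control was -0.74 and turned to 2.27 without sham library 1, and that of Rsad2 turned sign as well, since sham library 2 has no Rsad2 count.

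Among the other induced genes, Xaf1, a partner of the apoptosis inhibitor XIAP, separated the groups. It was at 16.9 and 7.24 CPM in sham libraries 1 and 2, 3.72 CPM in the uninjured library, and 0.113, 3.25 and 1.26 CPM in the injured libraries. All injured libraries were below all controls, although the uninjured library and injured library 2 lay close together. The log2 fold change was -2.97 ± 1.54 against sham control (SE, unadjusted p = 0.0955, adjusted p = 0.865, edgeR) and -2.59 ± 1.39 against all libraries without injury (SE, unadjusted p = 0.102, edgeR). With sham library 1 and injured library 1 left out, these were -1.68 and -1.27.

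Ifi35 was the most abundant gene of the last group in CPM, at 37.5 and 6.54 CPM in sham libraries 1 and 2, 8.20 CPM in the uninjured library, and 24.7, 14.6 and 4.88 CPM in the injured libraries. The groups overlapped, and its log2 fold change against sham control turned from -0.58 to 1.17 without sham library 1. Parp14, an ADP-ribosyltransferase, ranged from 0.557 to 4.01 CPM after injury and from 0.635 to 7.97 CPM without it, and its log2 fold change against sham control turned from -1.13 to 1.63 without sham library 1. Rtp4, a chaperone of membrane receptors, ranged from 1.46 to 10.3 CPM after injury and from 1.53 to 3.51 CPM without it. Ifi44 was listed at 0 in sham library 2 and injured library 2 and reached 9.37 CPM in the uninjured library.

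Counted as a list against sham control, 29 of the 32 genes had enough counts for the edgeR test. Of these, 12 had a positive and 17 a negative log2 fold change, so that 58.6% were negative against 46.0% of all genes tested. Their median was -0.34 beside 0.09 over all 16752 genes tested. None of the 29 passed an adjusted p under 0.05, where 0% of all genes did (the smallest adjusted p among the 29 was 0.865, edgeR). At an unadjusted p under 0.05, 1 was higher (Ifit1) and 1 was lower (Irf1), each 3.45% of the 29, beside 2.44% of all genes higher and 2.2% lower. DESeq2 called 1 of the 29 at an adjusted p under 0.05 (Ifit1), beside 2.2% of all genes, and limma-voom called 0.

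In 1 of the 29 (Ifit1, 3.45%), all injured libraries lay above both sham libraries, beside 11.9% of all genes. In 4 of the 29 (Irf1, Irf7, Xaf1 and Gbp2, 13.8%) they lay below both, beside 9.12% of all genes. The share was thus smaller than that of all genes on the higher side and larger on the lower side, and neither difference in share was tested.

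**Figure D4:**
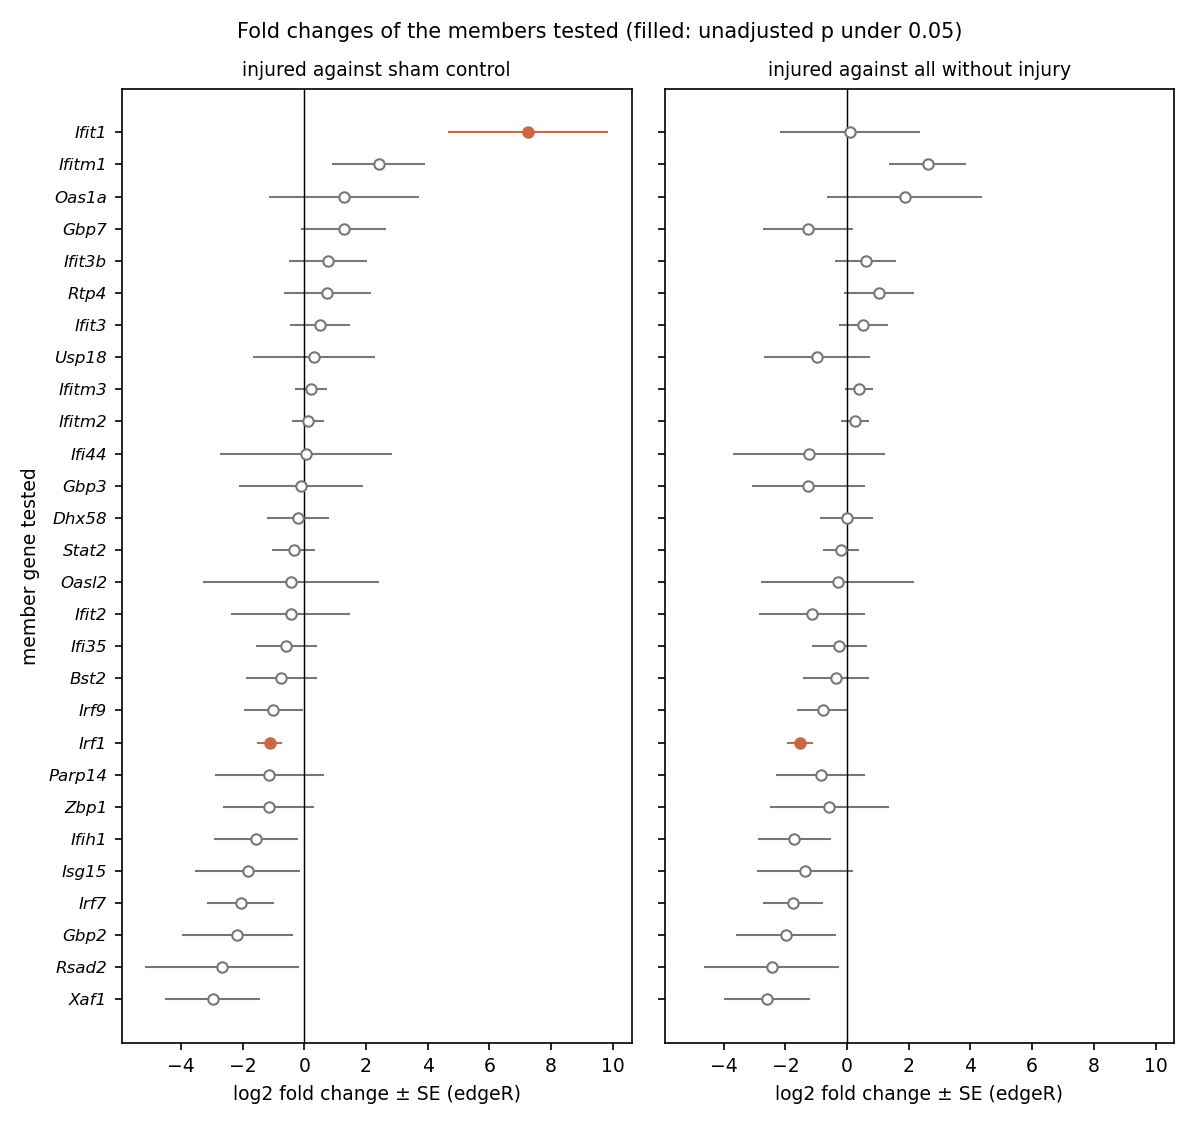
Log2 fold change ± SE by edgeR (horizontal axes) of the 28 genes of the group that had counts in a sham library and entered the test (vertical axis), for injured against sham control (left) and injured against all libraries without injury (right); filled points have an unadjusted p under 0.05. Only Irf1 is filled in both panels, and Ifit1, at 7.26 on the left, is at 0.09 on the right; Mx1, with no sham count, is not drawn.

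With the uninjured library added to the controls, 28 of the 32 genes could be tested, since Mx1 then had too few counts. The picture was lower on balance: 8 were positive and 20 negative, or 71.4% negative against 49.9% of all genes, with a median of -0.68 beside 0.00 over all 14110 genes tested. None passed an adjusted p under 0.05 by edgeR (the smallest was 0.452), and 0% of all genes did. At an unadjusted p under 0.05, 0 were higher and 1 was lower (Irf1, 3.57%), beside 3.71% and 3.72% of all genes. DESeq2 called 1 of the 28 (Irf1), beside 2.45% of all genes, and limma-voom called 0.

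In none of the 28 did all injured libraries lie above the 3 controls, beside 9.23% of all genes. In 3 of the 28 (Irf1, Xaf1 and Gbp2, 10.7%) they lay below all controls, beside 7.07% of all genes. Both comparisons use the same injured and sham libraries, so their values are not independent of each other.

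The median moved with single libraries. Against sham control it was 1.24 without sham library 1 and -0.94 without sham library 2, and against all libraries without injury it was 0.02 without sham library 1 and -1.05 without sham library 2. Against sham control the median was also not negative with all libraries kept under limma-voom (0.0088), and it was 0.26 with the replicate number as a block. Without sham library 1, 9 of the 29 genes took the other sign against sham control (Bst2, Gbp3, Ifi35, Ifih1, Irf9, Isg15, Oasl2, Parp14 and Rsad2), each from negative to positive. Sham library 1 held the highest value of 11 of the 29 tested genes (37.9%, beside 19.4% of all genes tested), sham library 2 of 1 (3.45%, beside 14.0%) and the uninjured library of 7 (24.1%, beside 19.1%). Among the injured libraries, library 1 held the highest value of 9 genes (31.0%, beside 21.3%), library 2 of 1 (3.45%, beside 12.5%) and library 3 of 0 (beside 13.8%).

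The marker lists of other cell types also differed between these libraries. The summed level of 14 macrophage markers was 3087 and 48.0 CPM in the sham libraries (13 and 7 markers counted), 193 CPM in the uninjured library (12 counted), and 5132, 1318 and 39.1 CPM in the injured libraries (14 counted in each). The 12 neutrophil markers summed to 10066 and 24.2 CPM in sham libraries 1 and 2, 814 CPM in the uninjured library, and 6422, 573 and 4.88 CPM in the injured ones, with 7 to 12 markers counted. The 10 endothelial markers summed to 1895 and 0.746 CPM, 863 CPM, and 354, 174 and 84.6 CPM in the same order, with 2 counted in sham library 2 and all 10 in the others. The 12 lymphocyte markers stayed at 0.0243 to 77.0 CPM, with 1 to 9 counted. Erythroid markers had the widest span, from 1.19 CPM in sham library 2 to 38765 CPM in sham library 1, with 6077 CPM in injured library 1 and 7.41 to 594 CPM in the other 3 libraries.

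The 8 Schwann cell markers summed to 5159 and 846 CPM in sham libraries 1 and 2, 940 CPM in the uninjured library, and 582, 322 and 298 CPM in the injured libraries, with 6 to 8 counted. Every injured library was thus below every control, as it was for Irf1, Xaf1 and Gbp2.

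Sham library 2, which had the lowest endothelial sum, and injured library 3, which had the lowest neutrophil and macrophage sums, were also the libraries with the lowest mean level of the interferon-induced genes. Ptprc, the pan-leukocyte gene, had no count in either of them. Adgre1, a macrophage gene, had its highest value, 33.4 CPM, in sham library 1. It was at 0 in sham library 2 and the uninjured library, and at 0.364 to 30.7 CPM in the injured libraries. Of 8 markers of plasmacytoid dendritic cells, which are known for interferon production, 3 and 2 were counted in sham libraries 1 and 2, 3 in the uninjured library, and 7, 4 and 4 in the injured libraries. Tcf4, which other cells also express, made up most of their sum of 59.0 to 138 CPM, and Siglech was at 0.0552 CPM or less in every library. Spib (6.31 CPM) and Cd209d (2.90 CPM) were highest in injured library 1, Cox6a2 was at 2.15, 3.42 and 0.0642 CPM in the injured libraries and 0 in all controls, and Ccr9 (3.60 CPM) and Pacsin1 (7.46 CPM) were highest in sham library 1. The part of all these cells in the levels of the interferon-induced genes was not tested.

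**Figure D5:**
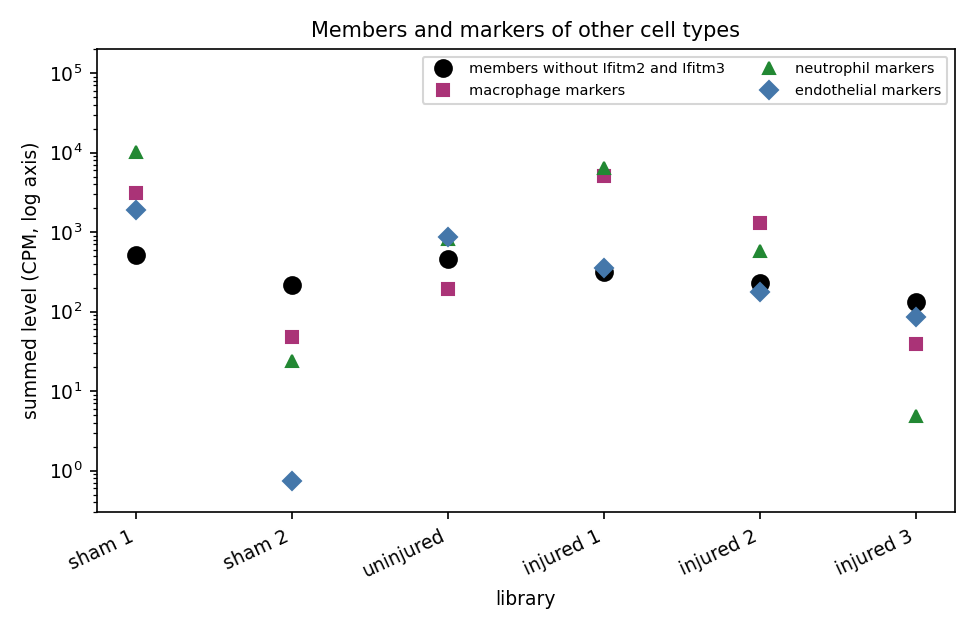
Summed CPM (vertical axis, log scale) in each library (horizontal axis) of the interferon-induced genes without Ifitm2 and Ifitm3 (black circles) and of the macrophage, neutrophil and endothelial markers. The interferon-induced genes span 132 to 519 CPM, while the neutrophil markers span 4.88 to 10066 CPM. Irf1 is the largest part of each black circle, with 267 of 462 CPM in the uninjured library.

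The other genes of the pathway came from lists fixed by function. Of 10 interferon ligands, Ifnb1 alone had enough counts for a test, with 3.22 CPM in sham library 1 and no count elsewhere. Of 14 receptor and signalling genes tested against sham control, 4 had a positive and 10 a negative log2 fold change. Their median was -0.17, and 1 of the 14 was lower at an unadjusted p under 0.05, beside 2.2% of all genes. That gene was Ifnlr1, the interferon lambda receptor, at 13.1 and 0 CPM in sham libraries 1 and 2, 6.11 CPM in the uninjured library and 0 in all injured libraries, with an unadjusted p of 0.0337 by edgeR. Sham library 2 was thus at 0 as well. The adjusted p of Ifnlr1 against sham control was 0.865 by edgeR and 3.0e-10 by DESeq2. The DESeq2 log2 fold change of -24.8 rests on no count in the injured libraries.

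Ifngr1, the ligand-binding chain of the interferon gamma receptor, was at 92.1 and 80.5 CPM in sham libraries 1 and 2, 189 CPM in the uninjured library, and 41.5, 63.2 and 53.4 CPM in the injured libraries. Every injured library was below every control. The log2 fold change was -0.71 ± 0.37 against sham control (SE, adjusted p = 0.865, edgeR) and -1.20 ± 0.42 against all libraries without injury (SE, unadjusted p = 0.0231, adjusted p = 0.552, edgeR). Il10rb, a chain shared by the interferon lambda and interleukin 10 receptors, was at 40.5 to 76.3 CPM without injury and 15.7 to 43.5 CPM after it, and the groups overlapped.

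Of 10 upstream sensors and adaptors tested against sham control, 6 were positive and 4 negative, and none had an unadjusted p under 0.05 in edgeR. The smallest p-values belonged to Aim2 (counted in injured library 2 alone, at 1.11 CPM), Tlr7 (0 to 0.219 CPM without injury, 0.0905 to 3.07 CPM after it) and the kinase Tbk1 (13.9 to 28.0 CPM without injury, 4.98 to 18.1 CPM after it). Of 11 negative regulators, 6 were positive and 5 negative, and 1 of the 11 was lower at an unadjusted p under 0.05, beside 2.2% of all genes. It was Socs3, a feedback inhibitor of JAK signalling that answers many cytokines. Socs3 stood at 473 and 377 CPM in sham libraries 1 and 2, 493 CPM in the uninjured library, and 209, 142 and 244 CPM in the injured libraries, with no overlap. Its log2 fold change was -1.10 ± 0.40 against sham control (SE, adjusted p = 0.865, edgeR) and -1.18 ± 0.33 against all libraries without injury (SE, adjusted p = 0.452 by edgeR and 0.0181 by DESeq2).

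Rnaseh2b and Rnaseh2a, subunits of the enzyme that removes RNA from DNA, had the next smallest p-values of the negative regulators, with log2 fold changes of 1.29 ± 0.84 and 0.72 ± 0.69 (SE) against sham control. Rnaseh2b was at 3.73 to 11.3 CPM without injury and 14.0 to 20.6 CPM after it, with no overlap and an adjusted p of 0.865 by edgeR.

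Of 46 further interferon-induced genes outside the 32, all were tested against sham control. Of these, 14 were positive and 32 negative, where 46.0% of all genes were negative, with a median of -0.57 beside 0.09. Some negative genes were highest in sham library 1, with sham library 2 below every injured library. Slfn2 was at 76.4 and 0.994 CPM in sham libraries 1 and 2 and at 54.3, 23.0 and 2.14 CPM in the injured libraries. Others, such as Igtp and Gbp6 below, were lower in every injured library than in both sham libraries. At an unadjusted p under 0.05, 1 of the 46 was higher and 1 was lower, beside 2.44% and 2.2% of all genes. The lower gene was Igtp, an immunity-related GTPase induced by interferon gamma, at 29.0 and 15.7 CPM in sham libraries 1 and 2, 20.1 CPM in the uninjured library, and 0.249, 0.446 and 1.97 CPM in the injured libraries. The injured libraries of Igtp all lay far below the controls. The log2 fold change was -4.65 ± 1.16 against sham control (SE, adjusted p = 0.865 by edgeR and 0.00123 by DESeq2). It was -4.61 ± 1.04 against all libraries without injury (SE, adjusted p = 0.452 by edgeR and 1.2e-04 by DESeq2).

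Gbp6 was at 20.5 and 3.45 CPM in sham libraries 1 and 2, 7.57 CPM in the uninjured library, and 0, 0.0991 and 1.11 CPM in the injured libraries, with no overlap and an unadjusted p of 0.0585 against sham control by edgeR. Gbp5, an activator of inflammasomes, was the gene counted as higher, at 0 and 0.0828 CPM in the sham libraries and 4.28, 3.75 and 0.535 CPM in the injured libraries, but at 9.64 CPM in the uninjured library. Gbp5 therefore had the order of Ifit1 between groups, with sham control lowest and the uninjured library highest. Its adjusted p against sham control was 0.865 by edgeR and 0.0374 by DESeq2, and DESeq2 gave 0.999 against all libraries without injury. Against all libraries without injury, 41 of the 46 were tested. Of these, 8 were positive and 33 negative, where 49.9% of all genes were negative, with a median of -0.47 beside 0.00.

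RefSeq promoters (GRCm38.p6, from 250 bases before to 50 bases after the start) were matched for 24 of the 32 genes. The ISRE core was in the promoters of 15 of the 24 (62.5%), beside 3.99% of the 27025 genes with a promoter and 3.44% of all 32851 promoters. The GAS motif, which reads the same on both strands, was in 7 of the 24 (29.2%: Irf1, Ifit2, Oas1a, Bst2, Ifi35, Gbp7 and Ifitm3), beside 9.55% of genes and 8.3% of promoters. Oas1a, Bst2, Gbp7 and Ifitm3 hold both motifs, and in Bst2 and Ifitm3 the matches of both overlap. Of the genes that were lower in every injured library than in every control, Irf1 has the GAS match alone, Gbp2 the ISRE match alone, and Xaf1 neither within this window. A match is a description of letters and says nothing about binding in these cells.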

How the data were processed

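RNA-seq counts per gene were deposited by the authors as 1 table of whole numbers for 6 libraries; the tools named per the submitters' processing notes are DESeq2 1.22.2, DESeq and Salmon 0.12.0, and the builds are GRCm38.p6 and mm9, with no role for each. Strandedness, annotation and any rounding of estimated counts: not given in the sources used here. Genes were filtered with filterByExpr (minimum count 10), scaled with TMM and tested with edgeR 4.0.16 (R 4.3.3, quasi-likelihood), and p-values were adjusted by Benjamini-Hochberg across the tested genes, at a threshold of 0.05. Against sham control, all 6 libraries entered as 3 groups; against all libraries without injury, as 2 groups. Tests were checked on simulated data. DESeq2 1.42.0, limma 3.58.1 (voom), other scalings, no filter, a replicate block and left-out libraries were alternatives.

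The 32 genes, the lists and the alternatives were chosen with earlier results of these data known. Values in every library are given for genes with an unadjusted p under 0.05 and, in each role, for the gene of highest mean CPM and that of smallest p against sham control; pathway lists are given by up to 3 genes with the smallest p. Lengths and coding identity come from GENCODE M21 (longest open reading frame), promoters from RefSeq. Levels use log2(CPM + 1). Intervals and floors cover counting error only.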

Additional observations from a re-analysis of the deposited data

How the results depend on the processing

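Against sham control, 11 of 29 genes kept their sign over the alternatives, and 49 of 373 alternative values changed sign; against all libraries without injury, 13 of 28 did, and 31 of 336 changed. DESeq2 called 1 gene in each comparison; at an unadjusted p under 0.05 it had 3 lower against sham control, and 1 higher and 2 lower against all. Limma-voom gave 2 lower and a median log2 fold change of 0.0088 against sham control, and a median of -0.21 against all. Scaling by library size alone left 0 lower against sham control; it moved the median of all genes there from 0.09 to 0.23. Without sham library 1 and injured library 1, which hold the most blood cell transcripts, there were 2 higher and 0 lower at an unadjusted p under 0.05 and a median of 0.67 against sham control, and 1 higher against all; an alternative chosen after seeing the data counted 9 genes above and 7 below without overlap against sham control, and 1 above against all. With the replicate block (residual degrees of freedom 1) there were 0 higher and 0 lower and a median of 0.26; same-numbered libraries correlated at 0.241, over only 2 numbers, which does not establish a pairing. Leaving out 1 library in turn, against sham control, gave 0 to 3 higher (3 without sham library 1) and 0 to 1 lower, medians of -1.16 (without injured library 1) to 1.24 (without sham library 1), 1 to 7 genes above without overlap (7 without sham library 1 or injured library 3) and 4 to 13 below (13 without sham library 2). Against all, it gave 0 to 1 higher, 1 to 2 lower, medians of -1.05 to 0.021, 0 to 5 above (5 without injured library 3) and 3 to 6 below (6 without sham library 2). Where 1 sham library is left, it is assumed to vary like the other groups. Gbp3 against sham control ran from -1.10 to 10.47 with 1 library left out, reversed to 10.47 without sham library 1 and to 10.66 without both libraries richest in blood cell transcripts, since sham library 2 has no Gbp3 count. A pseudocount of 5 gave mean levels of 4.18, 3.47, 3.83, 3.87, 3.72 and 3.28 (sham 1 and 2, uninjured, injured 1 to 3). Causes other than these were not tested.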
